A study of Homo sapiens with 8 samples.

Results

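Origins of replication on human chromosome 8 were compared between HCT116 p53-/- colon cancer cells (WT) and the 3 lines ORC1KO, ORC2KO and ORC5KO, made from those cells by CRISPR-Cas9 disruption of ORC1, ORC2 or ORC5. The members are all origins of the 3 count tables whose midpoint lies on chromosome 8, divided at 45 Mb into the short and the long arm. They number 2644 of 42162 origins in the table of WT and ORC1KO (721 on the short and 1923 on the long arm), 2319 of 44174 in the table of WT and ORC2KO (634 and 1685), and 2540 of 46467 in the table of WT and ORC5KO (686 and 1854). Joined over the 3 tables they make 3319 regions, 881 on the short and 2438 on the long arm. All 4 lines lack p53 and grew in McCoy's 5A medium with fetal bovine serum, without a treatment. Short nascent strands were sequenced from 2 biological replicates per line, 8 samples in all. Each knockout is 1 derived line, so a property of the line and the loss of the subunit cannot be told apart. The authors merged the replicates in the tables, so that no spread between replicates exists, no test between lines was possible, and the intervals reflect counting error or which origins were sampled, not variation between cultures. The chromosome was chosen on its knockout over WT values, its peak calls per line and its WT origin density in these data, and all 3 are therefore given as a description.

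Origins are the places where replication of the DNA starts. The origin recognition complex (ORC), which contains ORC1, ORC2 and ORC5, binds there and with CDC6 and CDT1 loads the MCM2–7 helicase, the ring that later unwinds the DNA. The short nascent strands read by SNS-seq are the first stretches of new DNA made at an origin, and are kept because the RNA primer at their 5′ end protects them from lambda exonuclease. Human origins gather in GC-rich and gene-rich DNA and in domains that replicate early, so that their number varies several-fold along a chromosome arm. Chromosome 8 carries MYC, the growth regulator, on the distal long arm, and on its short arm several genes that are often lost in cancers.

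In the tables, WT had 6416892 to 6878409 reads in origins and the knockout lines had 6691088 to 8523971. Reads were scaled by these totals to the same total per line (RPM), and the fold is the RPM of the knockout line over that of WT on the log2 scale. The fold varied with the GC content of the origin, so its running median over GC content in the other 21 autosomes was subtracted, and a GC-corrected value of 0 is that of an origin of equal GC content elsewhere. The WT reads are shared by the 3 comparisons, whose values are set side by side. The tables hold no reads of total genomic DNA, so the number of copies of a region and the use of its origins per copy cannot be told apart.

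The arms differed in origin number in WT cells before any comparison with a knockout. The long arm held 1183 WT origins and the short arm 460. In 5 Mb steps, counted from the end of the short arm, the short arm had 10.3 WT origins per Mb where 9.29 per Mb were expected from the 50 steps of the other autosomes nearest in GC content to each, a ratio of 1.11 (95% Poisson interval 1.01 to 1.21). The long arm had 11.8 per Mb against 6.18 expected, a ratio of 1.91 (1.80 to 2.02). Of its 20 steps, 19 held more WT origins than expected, whereas 4 of the 9 short arm steps did. The first short arm step had 111 of the 460 WT origins and a ratio of 1.93, and steps 3, 5 and 6 were at 1.29, 1.14 and 1.04. The remaining short arm steps lay between 0.286 and 0.965. The short arm ratio was not recomputed without its first step. WT reads were summed over all origins counted with ORC5KO, including those not called in WT. They followed the same order, with 432 RPM per Mb on the long arm, 2.24 times the expected value, and 309 RPM per Mb on the short arm, 1.10 times. By reads, 18 of the 20 long arm and 2 of the 9 short arm steps lay above the expected value.

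**Figure D1:**
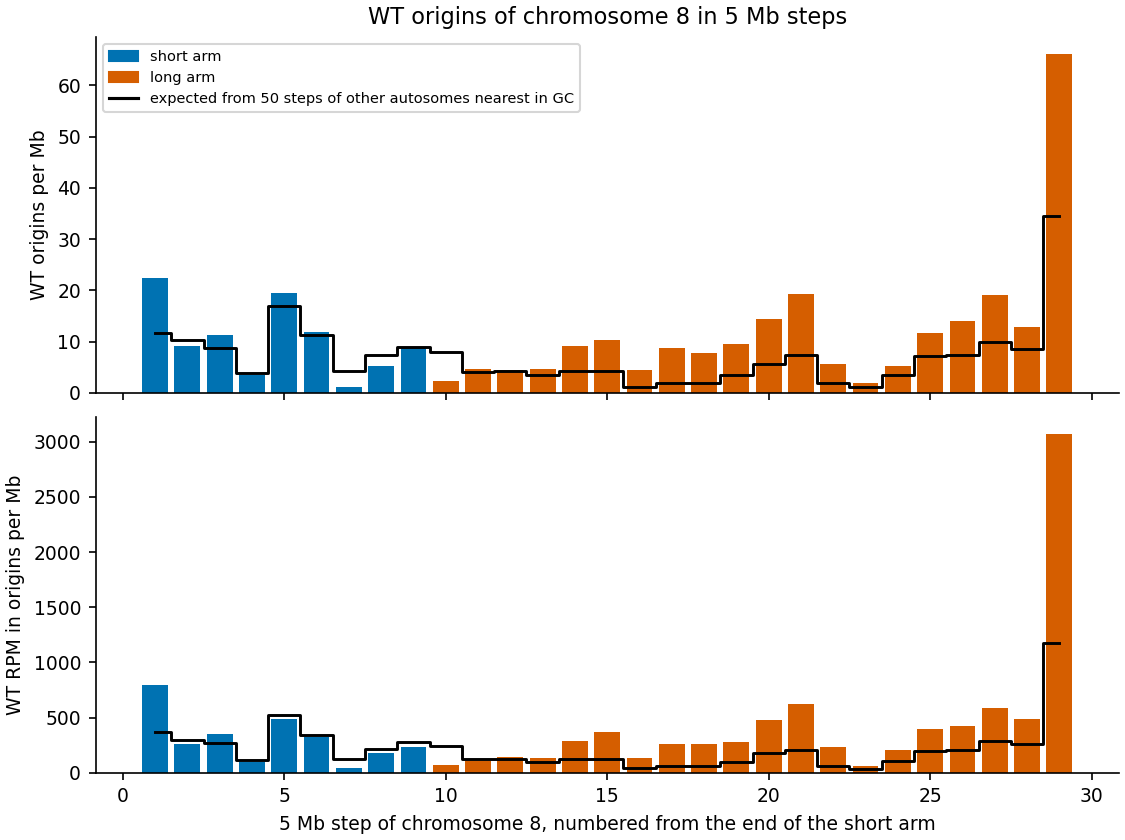
WT origins per Mb (upper panel) and WT RPM in origins per Mb (lower panel) in the 29 steps of 5 Mb of chromosome 8, numbered from the end of the short arm. The lower panel sums over all origins counted with ORC5KO, whether or not they were called in WT. Bars are the observed values and the black line is the median of the 50 steps of the other autosomes nearest in GC content. From step 14 to step 29 every bar stands above the line.

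The excess of the long arm was larger in its distal part. In steps 10 to 13, from 45 to 65 Mb, the ratio of observed to expected WT origins ranged from 0.278 to 1.35 and was 0.809 over the 4 steps (0.641 to 1.01). Only step 10, the first of the long arm, lay below the expected value, at 0.278 with 11 WT origins. Steps 11, 12 and 13 were at 1.15, 1.05 and 1.35. In steps 14 to 29, from 65 to 145 Mb, it ranged from 1.49 to 4.40 and was 2.12 over the 16 steps (1.99 to 2.24). This division was made after the values were seen. The reads per origin showed the same break. Among the origins counted with ORC5KO, the median WT level, relative to origins of equal GC content elsewhere, was -0.08 on the log2 scale in steps 10 to 13, 0.25 in steps 14 to 29, and -0.04 on the short arm. The distal long arm held both more WT origins and more WT reads per origin counted with ORC5KO. Among the 510 steps of the other autosomes, the ratio of observed to expected WT origins lay between 0.395 and 1.77 from the 5th to the 95th percentile.

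The highest ratios were found in AT-rich steps with few origins expected. Step 17, from 80 to 85 Mb with a GC content of 36.9%, had 8.80 WT origins per Mb against 2.00 expected. The last step, from 140 to 145 Mb, had a GC content of 52.6% and the highest density of the chromosome, 66.2 WT origins per Mb against 34.5 expected. It alone held 331 of the WT origins of the long arm and 3072 WT RPM per Mb against 1179 expected. The lowest densities were 1.20 per Mb in step 7, from 30 to 35 Mb, the step of NRG1, which codes for a growth factor of the ERBB receptors, and 2.00 per Mb in step 23, from 110 to 115 Mb. At the other end of the chromosome, the first step of the short arm had 22.5 WT origins per Mb against 11.6 expected. Neighbouring WT origins were a median of 16.0 kb apart on the short and 15.3 kb apart on the long arm, beside 14.4 kb on the other autosomes, and the longest stretches without a WT origin were 3.39 and 3.32 Mb.

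In ORC1KO cells both arms carried more reads per origin than in WT. On the short arm the median origin had 101 WT reads and 121 ORC1KO reads, or 15.7 and 18.1 RPM. The median log2 fold was 0.16 (95% interval of the median 0.13 to 0.20) and 0.15 after GC correction (0.13 to 0.18), a fold of 1.11. On the long arm the median origin had 119 WT and 140 ORC1KO reads, or 18.5 and 20.9 RPM, with a median log2 fold of 0.16 (0.14 to 0.18) and a GC-corrected value of 0.10 (0.09 to 0.12), a fold of 1.07. The GC-corrected value of the long arm was 0.05 below that of the short arm, and without the correction the arms were equal to 2 decimals. Long arm origins were poorer in GC (median 48.2% against 51.2%), and origins of the other autosomes had higher ORC1KO folds at 40 to 50% GC (0.17) than at 60% GC or more (-0.26). The medians of the other 21 autosomes ranged from -0.04 (chromosome 15) to 0.09 (chromosome 13), so that the short arm stood above all of them and the interval of the long arm included the value of chromosome 13. Together the origins of chromosome 8 took 6.20% of the WT reads and 6.84% of the ORC1KO reads of the table.

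In ORC2KO cells the arms lay on the other side of 0. The median short arm origin had 108 WT and 120 ORC2KO reads, which is 16.3 and 15.4 RPM after scaling, and the median GC-corrected log2 fold was -0.04 (-0.06 to -0.01). On the long arm, 126 WT and 137 ORC2KO reads corresponded to 19.0 and 17.5 RPM, and the GC-corrected value was -0.07 (-0.09 to -0.06). Only chromosome 13, at -0.08, lay below the value of the whole of chromosome 8 (-0.07), and the highest autosome was chromosome 19 at 0.05. In ORC5KO cells the short arm did not differ from 0 by more than its interval, with a GC-corrected median of -0.01 (-0.03 to 0.01) from 15.6 WT and 15.1 ORC5KO RPM. The long arm was at -0.03 (-0.04 to -0.02), from 17.7 and 17.4 RPM. The 21 other autosomes spanned -0.02 to 0.03 in this table, a narrower range than in the other tables, and chromosome 8 as a whole lay below all of them at -0.03.

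**Figure D2:**
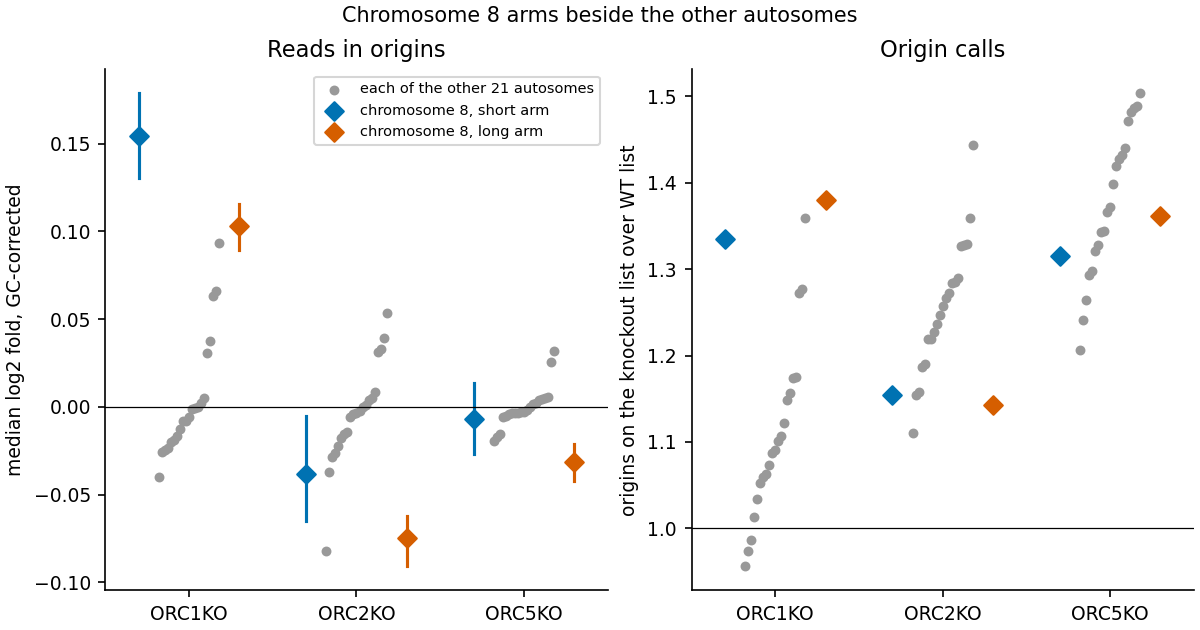
The 2 arms of chromosome 8 (diamonds) beside each of the other 21 autosomes (grey points) for the 3 knockout lines. The left panel gives the median GC-corrected log2 fold over WT, with bars for the 95% interval of the median of the arms, and the right panel the number of origins on the knockout list over the number on the WT list. The short arm lies above all grey points for ORC1KO on the left, the long arm lies near the lowest for ORC2KO on the left, and both arms do on the right.

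The level of each line was also compared with origins of equal GC content on the other autosomes. Among the origins counted with ORC1KO, long arm origins had a WT level of 0.21 and an ORC1KO level of 0.30 on the log2 scale, and short arm origins had -0.12 in WT and 0.02 in ORC1KO. With ORC2KO the long arm level was 0.26 in WT and 0.18 in the knockout, and with ORC5KO it was 0.23 and 0.20. The excess of reads per origin on the long arm was thus found in all 4 lines. The short arm lay between -0.12 and 0.02 in every line and table.

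The folds were spread over the whole length of the arms. For ORC1KO all 29 steps had a GC-corrected median above 0, from 0.00 to 0.23, and 8 of the 9 short arm and 8 of the 20 long arm steps lay above 0.11, the 95th percentile of 417 steps of the other autosomes. The highest steps were step 4, from 15 to 20 Mb (0.23, 40 origins), step 1 (0.20, 147 origins) and step 10, the first of the long arm (0.19, 25 origins, interval -0.01 to 0.39). The lowest were step 23 (0.00, 28 origins), step 12, from 55 to 60 Mb (0.03, 35 origins) and step 27, from 130 to 135 Mb (0.03, 153 origins), and the intervals of these 3 steps included 0. Between them lay step 29 at the end of the long arm, with 397 origins and a median of 0.15.

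For ORC2KO, 18 of the 19 long arm steps with at least 20 origins and 7 of the 8 short arm steps lay below 0. The lowest was step 18, from 85 to 90 Mb, at -0.20 (-0.31 to -0.11, 47 origins), followed by step 24, from 115 to 120 Mb, at -0.16 (51 origins) and step 28, from 135 to 140 Mb, at -0.16 (79 origins). Of the long arm steps, 4 lay below -0.15, the 5th percentile of the other autosomes' steps, and none of the short arm steps did. The last step, with 409 origins, was close to 0 at -0.01 (-0.03 to 0.01), and without it the long arm had a median of -0.11. The highest were step 10 (0.05), step 3, from 10 to 15 Mb (0.01), and step 9, from 40 to 45 Mb (-0.0015), and their intervals included 0. For ORC5KO the steps kept closer to 0, from -0.10 to 0.03. The lowest were step 24 (-0.10, 59 origins), step 19, from 90 to 95 Mb (-0.10, 74 origins) and step 18 (-0.08, 59 origins), which lie on the long arm, and the highest were steps 10, 9 and 8, the last from 35 to 40 Mb, at 0.03, 0.03 and 0.01.

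**Figure D3:**
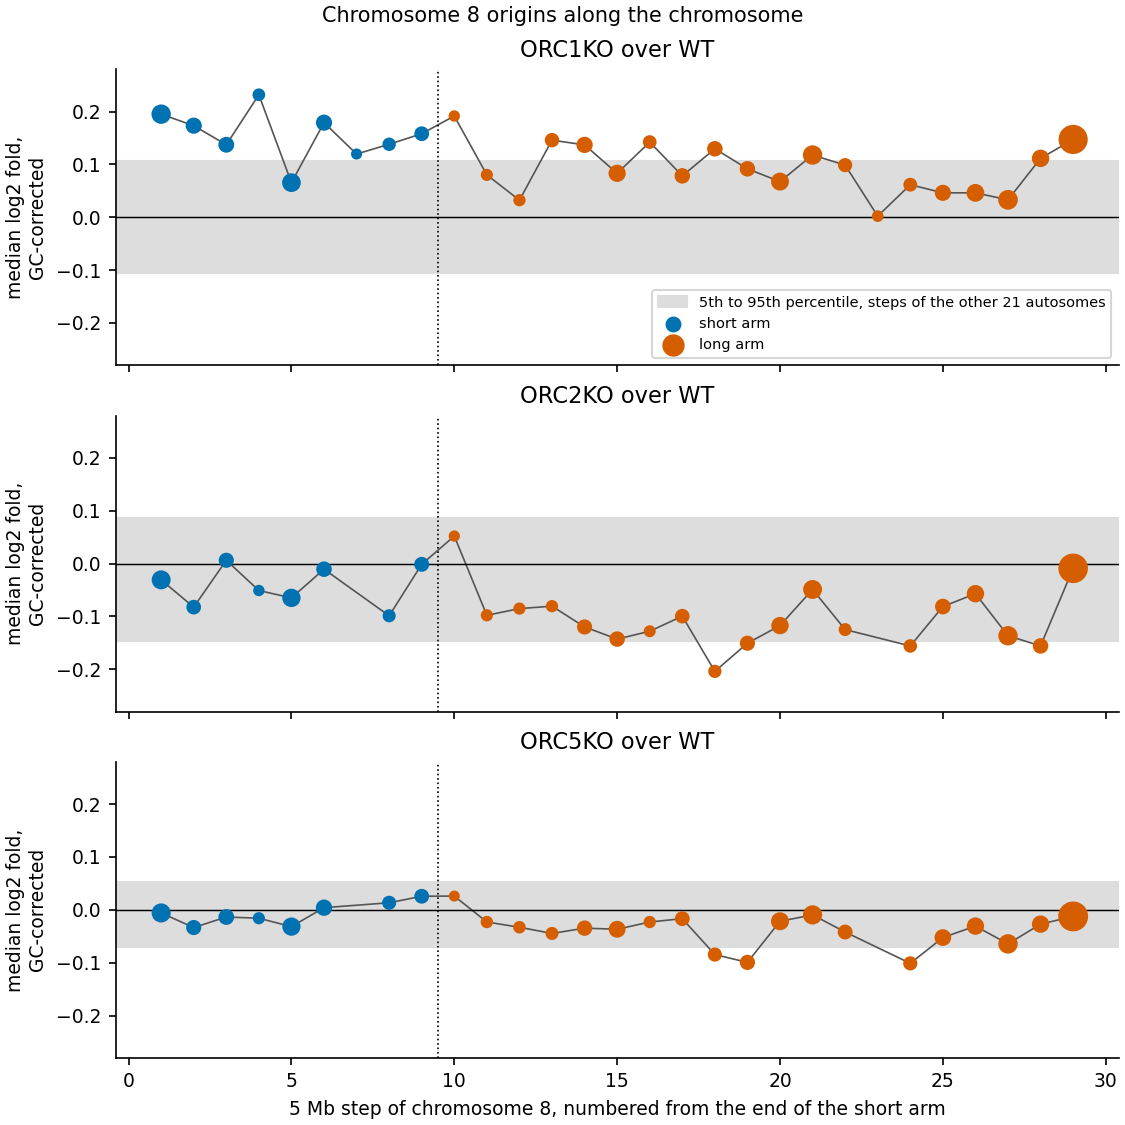
Median GC-corrected log2 fold over WT in 5 Mb steps of chromosome 8 with at least 20 origins, for the 3 knockout lines. Points are larger where a step holds more origins, the dotted line separates the arms, and the grey band spans the 5th to the 95th percentile of the steps of the other 21 autosomes. The ORC1KO points all lie at or above 0, and nearly all long arm points lie below 0 for ORC2KO and ORC5KO.

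Counted at 1.5-fold in RPM, origins with more ORC1KO reads outnumbered those with fewer on both arms. On the short arm 97 of 721 origins (13.5%, 95% Wilson interval 11.2 to 16.1) were up and 10 (1.39%) were down. On the long arm 197 of 1923 (10.2%, 8.97 to 11.7) were up and 15 (0.780%) were down. Over all origins of the table, 7.04% were up and 3.95% down. With the other autosomes weighted to the GC content of the arm, 7.41% up and 3.61% down would correspond to the short arm and 9.29% up and 3.21% down to the long arm. The share of origins up on the long arm was thus close to its GC-weighted background, and the share of origins down was below the background on both arms. On the GC-corrected scale 64 short arm origins were up and 7 were down, and 101 long arm origins were up and 14 were down, while 4.9% of all origins of the table were up and 2.68% down. The GC-weighted shares of the other autosomes on this scale were 5.12% up and 2.89% down for the short arm and 5.43% and 3.59% for the long arm. The 5.25% of long arm origins up was thus no larger than this background.

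Of all origins counted with ORC2KO, 4.66% were up and 3.58% down. The short arm had 23 of 634 origins up (3.63%) and 24 down (3.79%), and the long arm had 52 of 1685 up (3.09%, 2.36 to 4.02) and 72 down (4.27%, 3.41 to 5.35). The GC-weighted background of the long arm was 5.64% up and 3.48% down. Of those counted with ORC5KO, 2.08% were up and 0.68% down, and chromosome 8 had 32 origins up (10 on the short and 22 on the long arm) and 11 down (1 and 10). Its share of origins up, 1.26% (0.894 to 1.77), lay below the GC-weighted background of 2.45%. Its share down, 0.433% (0.242 to 0.774), was also below the GC-weighted background of 0.759%, which lay within the interval. The members nearest to the split at 45 Mb lie well away from it. The last short arm origin in the table of WT and ORC1KO ends at 43519864, with 162 WT and 208 ORC1KO reads, and the first long arm origin begins at 47347924, with 34 and 78 reads.

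**Figure D4:**
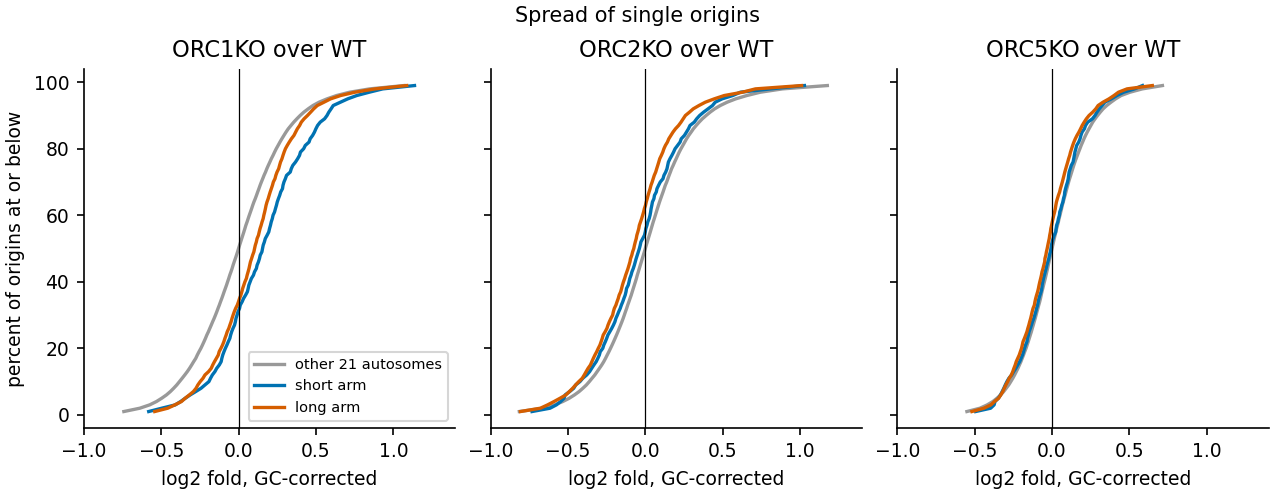
Cumulative distribution of the GC-corrected log2 fold over single origins, for the short arm, the long arm and the other 21 autosomes in each table. The horizontal axis is the log2 fold and the vertical axis the percent of origins at or below it. In the ORC1KO panel both arms lie to the right of the other autosomes over most of the range, with 68.5% of short arm and 65.9% of long arm origins above 0. The correction sets the median of the other autosomes close to 0.

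The ORC1KO shift was seen in the quartiles as well as in the median. The correction sets the median origin of the other autosomes close to 0, so that their origins divide about evenly around it. With ORC1KO 68.5% of short arm and 65.9% of long arm origins had a GC-corrected fold above 0. The quartiles were -0.04 and 0.35 on the short and -0.07 and 0.26 on the long arm, beside -0.19 and 0.19 on the other autosomes. With ORC2KO 44.8% of short arm and 37.2% of long arm origins lay above 0, and with ORC5KO 48.1% and 42.3%. The ORC1KO values were above 0 at every depth. Origins with 400 or more reads of both lines together had a GC-corrected median of 0.20 on the short arm (113 origins) and 0.13 on the long arm (427 origins), beside 0.06 on the other autosomes, and origins under 200 reads had 0.16, 0.14 and -0.01. For ORC2KO the long arm value differed with depth, being -0.15 in the 470 origins under 200 reads and 0.00 in the 420 with 400 or more, while the other autosomes went from -0.04 to 0.06 between the same classes.

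The lists of called origins, made from the same reads as the counts, gave 614 short arm and 1632 long arm origins in ORC1KO, 531 and 1352 in ORC2KO, and 605 and 1611 in ORC5KO. Over WT these are ratios of 1.33 and 1.38 for ORC1KO, 1.15 and 1.14 for ORC2KO, and 1.32 and 1.36 for ORC5KO. On the other autosomes the ratios were 1.10, 1.26 and 1.37. Chromosome 8 as a whole had the highest ratio of the 22 autosomes for ORC1KO, at 1.37, next to chromosome 13 at 1.36. For ORC2KO its ratio was 1.15, and only chromosome 6 was lower, at 1.11. For ORC5KO it lay among the others, with 12 autosomes higher and 9 lower. In ORC1KO the density relative to the GC-matched expectation of the same list was 1.27 on the short arm (1.17 to 1.37), compared with 1.11 in WT, and 2.14 on the long arm (2.03 to 2.24), compared with 1.91. In the other lines it was below that of WT, at 0.965 (0.885 to 1.05) and 1.65 (1.56 to 1.74) in ORC2KO. In ORC5KO it was 1.01 (0.928 to 1.09) and 1.76 (1.67 to 1.84). Apart from the ORC2KO long arm, these intervals overlapped those of WT, as did that of the ORC1KO short arm.

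Of all WT origins in the genome, 71.1% had a counterpart in ORC1KO, 78.6% in ORC2KO and 82.6% in ORC5KO, at an overlap of at least 1 bp. On chromosome 8 more WT origins were found again in ORC1KO, 349 of 460 on the short arm (75.9%, 71.8 to 79.6) and 890 of 1183 on the long arm (75.2%, 72.7 to 77.6). The other autosomes weighted to the same GC content gave 70.7% and 69.2%. In ORC2KO 849 WT origins of the long arm had a counterpart (71.8%, 69.1 to 74.3), below the weighted 76.2% of the other autosomes, and on the short arm 355 (77.2%, 73.1 to 80.8) beside 78.1%. In ORC5KO 379 short arm (82.4%) and 936 long arm origins (79.1%) were found again, within 1 percentage point of the weighted background of 82.1% and 80.1%. In all 3 knockout lines together, 281 WT origins of the short arm (61.1%) and 686 of the long arm (58.0%) had a counterpart, and 27 (5.87%) and 99 (8.37%) had none. Over the genome 60.4% had a counterpart in all 3 and 8.17% had none, shares close to those of the arms.

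The origins of the knockout lists with no WT counterpart made up 35.9% of the ORC1KO, 37.4% of the ORC2KO and 39.7% of the ORC5KO list over the genome. On chromosome 8 they were 261 on the short arm (42.5%, 38.7 to 46.5) and 741 on the long arm (45.4%, 43.0 to 47.8) in ORC1KO. The GC-weighted background was 39.1% and 43.9%, within the interval of each arm. In ORC2KO they were 174 (32.8%, 28.9 to 36.9) and 506 (37.4%), below the weighted 39.5% and 42.3%. In ORC5KO they were 226 (37.4%) and 673 (41.8%). The differences from the weighted background were -4.06 (-7.82 to -0.13) and -3.18 (-5.57 to -0.76) percentage points. Origins on both the WT and the ORC1KO list had a GC-corrected median of 0.10 on the short arm (0.06 to 0.15) and 0.07 on the long arm (0.05 to 0.08), beside -0.01 on the other autosomes. For ORC2KO the same class was at -0.05 and -0.07, beside -0.01.

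Origins were alike on both arms in width and differed in sequence and place. WT origins had a median width of 524.5 bp on the short and 534 bp on the long arm, compared with 524 bp on the other autosomes, and a median GC content of 53.8% and 50.8% on the arms. Fewer chromosome 8 origins lay within 2 kb of the start of a protein-coding gene: 46 WT origins of the short arm (10.0%) and 124 of the long arm (10.5%), against 13.9% on the other autosomes. Introns of protein-coding genes held 46.1% of the short arm and 36.3% of the long arm WT origins. Outside protein-coding and lncRNA genes, called outside genes below, lay 23.9% and 30.9%. LncRNA genes, counted only for origins in none of the protein-coding classes, held a larger share on the long arm (16.3%) than on the other autosomes (10.1%). Of the ORC1KO list, 7.49% on the short and 7.60% on the long arm lay at gene starts, against 11.4% elsewhere.

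The ORC1KO excess appeared in each of these classes once GC content was taken into account. GC-corrected medians on the short arm were 0.17 at gene starts (61 origins), 0.20 in exons (53), 0.15 in introns (316), 0.14 in lncRNA genes (104) and 0.15 outside genes (187). On the long arm all 5 classes lay at 0.10 or 0.11. Before correction, gene start origins of the short and long arm had medians of -0.06 and -0.09, above the -0.20 of gene starts on other autosomes. By GC content the short arm ranged from 0.14 in origins of 40 to 50% GC to 0.29 (-0.03 to 0.48) in the 27 origins under 40% GC, and the long arm from 0.09 to 0.14.

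The GC skew of an origin, the imbalance of G over C on a strand, went with its fold on chromosome 8 as it did elsewhere. With ORC1KO, origins with an absolute skew of 0.6 or more had a GC-corrected median of 0.50 on the short arm (52 origins) and 0.62 on the long arm (79 origins), beside 0.47 on the other autosomes. Those with a skew under 0.4 had 0.06 and 0.05, beside -0.07. At a skew of 0.4 to 0.6 the values were 0.25 and 0.17, beside 0.09. For ORC2KO, origins of high skew had 0.31 on the short arm, 0.55 on the long arm and 0.49 elsewhere, and those of low skew had -0.09, -0.10 and -0.03. For ORC5KO the high-skew values were 0.14, 0.35 and 0.31.

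Among the 294 origins of chromosome 8 up in ORC1KO, 78 had an absolute skew of 0.6 or more and the median was 0.445. Of the 2631 on the other autosomes 1302 did, with a median of 0.595. Of the 294, 242 were on the ORC1KO list alone, 47 on both lists and 5 on the WT list alone. Of the 2631 on the other autosomes the numbers were 2120, 472 and 39. In ORC2KO 46 of the 75 origins called up had such a skew (median 0.726), and in ORC5KO 21 of 32 (median 0.762). On the other autosomes 1098 of 1944 (median 0.665) and 593 of 912 (median 0.744) did. The 25 origins called down in ORC1KO had a median GC content of 63.2% and a median skew of 0.207, and 23 of them were on the WT list alone. For the 1625 called down on the other autosomes the medians were 62.9% and 0.237, and 1224 were on the WT list alone. The 96 called down in ORC2KO had a median GC content of 49.0%, and the 1483 on the other autosomes 53.2%.

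Across the 3 tables, 1875 regions of chromosome 8 could be matched, 531 on the short and 1344 on the long arm. With the same direction in all tables and at least 100 reads of both lines together in each, 370 were higher (19.7%) and 607 lower (32.4%) in the knockout lines, while of the 32040 matched regions of the other autosomes 6617 were higher and 12804 lower. Past 1.5-fold in all 3 tables, 20 regions were up (1.07%, 7 on the short and 13 on the long arm) and 2 were down, 1 on each arm. Of all matched regions of the genome, 1.62% were up and 0.143% down in all 3. Since the tables share the WT reads, a low WT count alone raises the fold in all 3.

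The highest short arm origin, by the smallest fold over the 3 tables, lies in an intron of TACC1, a gene for a centrosomal coiled-coil protein (chr8:38768758-38769834, hg38, as are all positions). It had 113 WT and 360 ORC1KO reads, 110 WT and 394 ORC2KO reads, and 98 WT and 243 ORC5KO reads in the 3 tables. The log2 folds were 1.61 (95% Clopper-Pearson interval 1.30 to 1.93), 1.61 (1.30 to 1.93) and 1.00 (0.66 to 1.35). It was on the 3 knockout lists and not on the WT list. The second, 54905 bp from FBXO25 and outside genes (chr8:350244-351522), had 146 WT and 314 ORC5KO reads, and log2 folds of 1.11, 0.84 and 0.80 in ORC1KO, ORC2KO and ORC5KO. The third, in an intron of XKR6 (chr8:11032969-11033484), had 54 WT and 115 ORC5KO reads, with folds of 1.37, 1.11 and 0.78.

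The highest long arm origin lies outside genes, 129693 bp from MRPL15, which codes for a protein of the mitochondrial ribosome (chr8:54278208-54278923). It had 74 WT and 278 ORC1KO reads, 69 WT and 218 ORC2KO reads, and 69 WT and 205 ORC5KO reads. Its log2 folds were 1.85 (1.47 to 2.24), 1.43 (1.03 to 1.84) and 1.26 (0.86 to 1.68). The next, in the lncRNA gene ENSG00000287332, 60818 bp from TSNARE1 (chr8:142150656-142151261), had folds of 1.24, 1.13 and 1.02. Its first 2 folds are of wider origins, chr8:142149920-142151348 with ORC1KO and chr8:142149918-142151280 with ORC2KO. These had 177 and 174 WT reads, against 81 with ORC5KO. The third, 175733 bp from TRIB1 (chr8:125614137-125614549), had 1.48, 0.97 and 1.01. All 6 origins were absent from the WT list and present on the 3 knockout lists, and their absolute GC skew ranged from 0.72 to 0.92.

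The lowest origins were on the WT list and mostly missing from the knockout lists. The lowest of the short arm, 83853 bp from MYOM2 (chr8:2249406-2249963), had a level of 15.9 RPM in WT and 8.52 in ORC1KO, 15.4 and 4.87 in the ORC2KO table, and 14.8 and 6.80 in the ORC5KO table. The next, in an intron of DLGAP2, which codes for a scaffold protein of the synapse (chr8:1206730-1207280), had 110 WT and 72 ORC1KO reads and log2 folds of -0.67, -0.55 and -0.49. The third, 16271 bp from POTEA (chr8:43275825-43276211), had folds of -0.55, -0.67 and -0.41.

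On the long arm the lowest lies in the lncRNA gene ENSG00000254777, 55334 bp from CHD7, a chromatin remodeller (chr8:60923363-60923815), with 82 WT reads in each table against 55 in ORC1KO, 60 in ORC2KO and 65 in ORC5KO. Its log2 folds were -0.64 (-1.16 to -0.13), -0.68 (-1.19 to -0.19) and -0.64 (-1.14 to -0.16). The second is within 2 kb of the start of RSPO2, which codes for an enhancer of Wnt signalling (chr8:108082466-108083044), with 108 WT reads in each table and folds of -0.55, -1.11 and -0.54. The third lies in an intron of TSNARE1 (chr8:142251661-142252279), with folds of -0.81, -0.60 and -0.53. The absolute GC skew of the 6 ranged from 0.07 to 0.27.

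**Figure D5:**
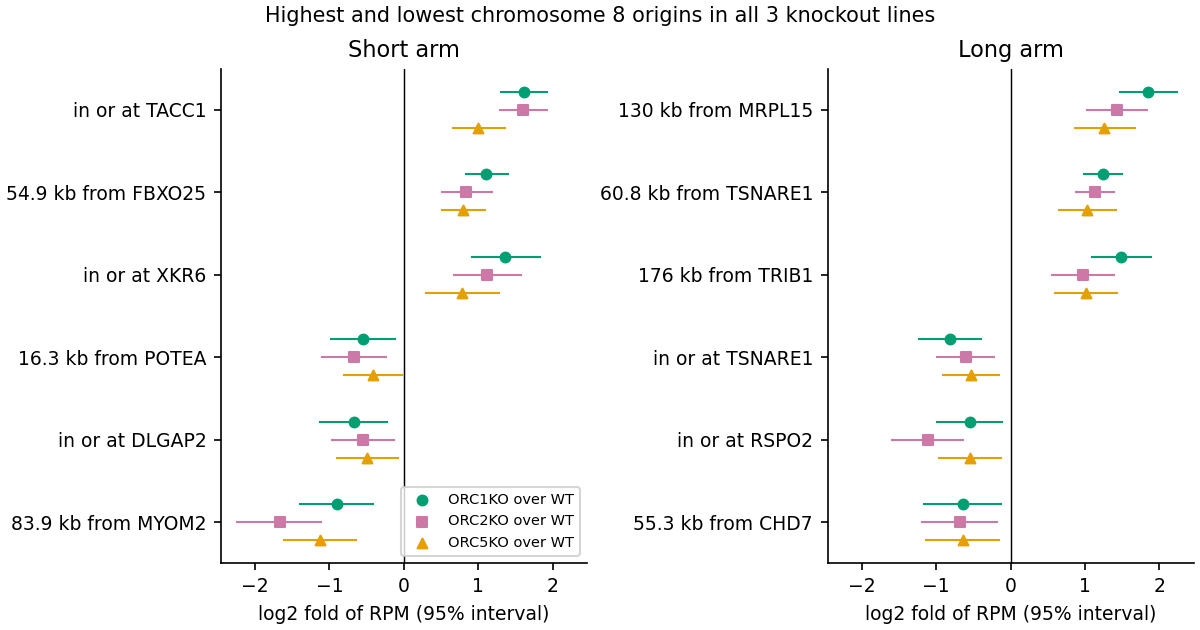
Log2 fold of RPM over WT for the 3 highest and the 3 lowest origins of each arm, chosen by the smallest absolute fold over the 3 tables. Symbols give the knockout line, and bars are 95% Clopper-Pearson intervals, which cover counting error only. The upper 3 origins of each panel lie above 0 and the lower 3 below 0 in every line, as the rule requires.

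The origins with most WT reads were named without regard to their fold. On the short arm the highest WT level was in an intron of DLGAP2 (chr8:1570672-1573539), with 1474 WT reads, or 214 RPM, and 1921 ORC5KO reads, or 225 RPM. In ORC1KO it had 2048 reads and a log2 fold of 0.41 (0.32 to 0.51), in ORC2KO 0.19 (0.09 to 0.29) and in ORC5KO 0.07 (-0.03 to 0.17). It is followed by an origin at the start of ARHGEF10, a gene for a guanine nucleotide exchange factor (chr8:1823714-1825688, 125 WT RPM), and by one 20603 bp from ERICH1 (chr8:592924-594142, 119 WT RPM). Their ORC1KO folds were 0.27 and 0.15, and the latter was on neither the ORC2KO nor the ORC5KO list. All 3 lie in the first step of the arm.

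On the long arm the origin with most WT reads is in an intron of TRAPPC9, which codes for a subunit of a complex of vesicle trafficking (chr8:139755281-139757564). It had 1332 WT reads, or 194 RPM, beside 1827 reads in ORC1KO, 2087 in ORC2KO and 2159 in ORC5KO. The log2 folds were 0.40 (0.29 to 0.50), 0.42 (0.32 to 0.52) and 0.39 (0.29 to 0.49). The next 2, in an intron of ARHGAP39 (chr8:144661376-144663159, 180 WT RPM) and 5706 bp from LY6H (chr8:143166418-143168720, 148 WT RPM), had folds of 0.20 and 0.17 in ORC1KO, and of 0.01 and -0.04 in ORC5KO.

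Of 20 genes of replication, repair and the cell cycle on chromosome 8, 4 had an origin of all 3 tables within 2 kb of their start, and so had 4 of 26 genes known from cancer. Of all 702 protein-coding genes of the chromosome 180 did (25.6%), and of the 18409 of the other autosomes 4242 did. None of these 8 origins was up by 1.5-fold in any line, and 1 was down, in ORC1KO, where 7.04% and 3.95% of all origins were called. The median log2 fold of the 8 was -0.18 in ORC1KO, -0.09 in ORC2KO and -0.13 in ORC5KO, and 0.06, -0.02 and -0.08 after GC correction. The origin called down lies at the start of POLB, the gene of the repair polymerase beta (chr8:42338074-42338715). It had 104 WT reads, or 16.2 RPM, and 72 ORC1KO reads, or 10.8 RPM, a log2 fold of -0.59 (-1.05 to -0.14). With 85 ORC2KO reads the fold was -0.52 (-0.96 to -0.10), and with 113 ORC5KO reads -0.19 (-0.59 to 0.21).

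The origin at the start of NBN, a subunit of the complex that senses DNA breaks, had 163 WT and 155 ORC1KO reads (log2 fold -0.13), and its folds in ORC2KO and ORC5KO were -0.26 and -0.21. Its position, chr8:90001369-90001972, is also at the start of DECR1. The origin of CCNE2, which codes for cyclin E2 of the G1/S transition (chr8:94895004-94895518, also at the start of NDUFAF6), had folds of -0.27, -0.37 and -0.16. That of CDCA2, a targeting subunit of a mitotic phosphatase (chr8:25458935-25459622, also at the start of KCTD9), had -0.19, -0.06 and -0.11. Of these 3, only the ORC2KO value of CCNE2 had an interval without 0 (-0.74 to -0.0034).

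Among the cancer genes, the origin at MYC (chr8:127736675-127737092) had 134 WT and 141 ORC1KO reads, 130 WT and 164 ORC2KO reads, and 127 WT and 178 ORC5KO reads. Its log2 folds, 0.01, 0.10 and 0.18, all had intervals that included 0. The origin of YWHAZ, the gene of the adaptor protein 14-3-3 zeta (chr8:100952141-100952736), had 315 WT and 262 ORC1KO reads, a fold of -0.33 (-0.57 to -0.09), and after GC correction a value of 0.02. The origin of PTK2, which codes for focal adhesion kinase (chr8:141000344-141001154), had 490 WT and 469 ORC1KO reads, a fold of -0.12 and a GC-corrected value of 0.33, at a GC content of 75.8%. That of MYBL1, a transcription factor of the MYB family (chr8:66612929-66613743), had -0.17 before and 0.24 after correction.

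Within the bodies of the 46 listed genes there were 57 WT, 86 ORC1KO, 58 ORC2KO and 85 ORC5KO origins. CSMD1, a gene of 2060 kb at the end of the short arm, held 12 WT, 25 ORC1KO, 14 ORC2KO and 18 ORC5KO origins, and CSMD3, its relative of 1214 kb on the long arm, held 0, 4, 0 and 2. TPD52, PTK2 and PVT1 held 7, 6 and 6 WT origins. Over the whole chromosome the knockout lists held 1.37, 1.15 and 1.35 times as many origins as the WT list. No origin on any list lay in 4 of the 28 listed long arm genes and in 9 of the 18 on the short arm, the latter including DLC1, TUSC3 and GATA4. The listed genes differ in length, and the share of all genes without an origin was not counted. These counts are therefore no comparison of the arms. A count of 0 origins in a gene says only that no peak was called in both replicates there.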

How the data were processed

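SNS-seq was run on 4 HCT116 p53-/- lines, 2 biological replicates each, 8 samples in all. The authors trimmed the reads with Trim Galore 0.6.4, aligned them with Bowtie to hg38, and ran MACS2 on each replicate, keeping the peaks that both had. The 4 deposited lists hold positions (start and end, with no score). The 3 deposited tables hold raw read counts per origin of WT and 1 knockout line, with overlapping origins joined and replicates merged by the authors, and the counting tool is not given in the sources used here. WT totals were 6416892 to 6878409 and knockout totals 6691088 to 8523971 reads, other contigs included.

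From the counts, RPM and log2 folds were computed for origins on chromosomes 1 to 22, X and Y, with no filter and no pseudocount, since every origin had reads in both lines. Folds were corrected for GC content by a running median over 1001 origins of the other 21 autosomes. Steps of 5 Mb with at least 80% called bases were kept, and expected densities are medians of the 50 steps of other autosomes nearest in GC content. Shares of other autosomes weighted to the GC content of an arm use bins of 2 percentage points. Intervals are 95%: order statistic for medians, Wilson for shares, Clopper-Pearson for folds of single origins, Poisson for densities. They treat origins or reads as independent, which neighbouring origins and duplicate reads are not. Origins of different tables or lists were matched at an overlap of 1 bp. Positions of named origins are those of the table of WT and ORC5KO, and a matched origin can differ in extent between tables. Genes are those of GENCODE release 44.

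The members, the gene lists and the rules were chosen with earlier results of these data known. Named origins are the 3 highest and 3 lowest per arm by the smallest absolute fold over the tables (same direction, at least 100 reads in each), the 3 with most WT RPM per arm in the table of WT and ORC5KO, and those within 2 kb of the start of a listed gene. Named steps are the 3 highest and 3 lowest per line. The lists were 20 genes of replication, repair and cell cycle (MCM4, PRKDC, GINS4, POLB, RECQL4, WRN, NBN, RAD21, RAD54B, CCNE2, E2F5, ESCO2, TONSL, CDCA2, PBK, ATAD2, DSCC1, UBE2V2, MTBP, TERF1) and 26 known from cancer (MYC, PVT1, TRIB1, FGFR1, NRG1, DLC1, TUSC3, CSMD1, CSMD3, TNFRSF10A, TNFRSF10B, EXT1, PTK2, COPS5, TPD52, YWHAZ, LYN, MYBL1, EIF3H, GRHL2, ZNF703, KAT6A, TACC1, GATA4, SOX17, and 1 gene that is counted but not reported here). The alternatives covered scaling (TMM factors from edgeR, median-of-ratios factors, reads in shared origins, reads outside chromosome 8), read filters, the GC correction, the overlap, width and joining of origins, step size and segments left out. The GC correction was checked on simulated counts. The TMM factors came from edgeR 4.0.16 in R 4.3.3 and all else from Python 3.11.15 (scipy 1.17.1, pandas 2.3.3, numpy 2.4.6, matplotlib 3.10.9).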

Additional observations from a re-analysis of the deposited data

How the results depend on the processing

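No paired analysis was possible because the tables merge the replicates of a line, and leaving out a replicate was not possible for the same reason. Of 93 recomputed medians 16 moved outside their interval, as did 1 of 15 differences between arms, and 16 of 60 counts, 5 of 30 call values and 12 of 18 density ratios moved by the same measure or by over 1.5 times. Scaling shifts all origins of a table alike and cancels in the GC-corrected medians and their differences between arms. Those values could not move but are counted in the totals. Density ratios moved most often, and these include the ratios of WT reads, all of whose recomputed values left their interval. Those Poisson intervals were narrow because of the many reads (1.09 to 1.10 on the short and 2.23 to 2.25 on the long arm). Small changes therefore fall outside them. Of the 16 counts that moved, 11 did so at the change to 2-fold.

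GC-corrected medians moved outside their interval in origins called in both lines, with the correction refitted there (ORC1KO short arm 0.13, ORC2KO long arm -0.048), with no correction (ORC1KO long arm 0.16, ORC2KO short arm -0.074 and long arm -0.10), and, in an alternative chosen after seeing the data, without the last long arm step (ORC2KO -0.11, ORC5KO -0.042). The uncorrected medians of the short and long arm became 0.20 and 0.20 for ORC1KO and 0.015 and -0.0092 for ORC5KO with reads in shared origins, -0.035 and -0.0595 for ORC2KO with median-of-ratios factors, -0.0359 and -0.0604 with TMM factors, and the ORC2KO long arm -0.0847 with shared origins. Long arm minus short arm was -0.05 for ORC1KO and -0.000786 without correction. The ORC5KO short arm, whose interval included 0, was the only median to change its sign. The filter of 200 reads and GC bins of 1 percentage point moved none beyond its interval. Nor did leaving out origins near the split or the step farthest from the median. The lowest total of an origin on chromosome 8 was 86 reads, so the filter of 50 reads, also counted in the totals, could not move any.

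At 2-fold the numbers of origins up and down were 17 and 0 on the short and 36 and 0 on the long arm for ORC1KO, 7 and 2, and 14 and 7, for ORC2KO, and 1 up on the short and 5 up and 0 down on the long arm for ORC5KO. After GC correction 64 and 101 were up for ORC1KO and 2 short arm origins down for ORC5KO. With either scaling factor 15 short arm origins were down for ORC2KO. The shares over all origins were not counted at 2-fold or with these factors, so those counts are no comparison with the genome. With origins at least as wide as their line's median, the percentage of WT origins found again was 66.1%, 67.0% and 73.5% on the short arm for ORC1KO, ORC2KO and ORC5KO, and 69.6% for ORC1KO and 75.6% for ORC5KO on the long arm. Observed over expected WT origins became 1.66 on the short arm with no GC matching, and 2.13 on the long arm with 10 Mb steps and 1.79 with 30 nearest steps. For WT reads the short arm ratio was 1.04 with 2 Mb steps, 1.00 with 10 Mb steps, 1.08 with 30 nearest steps and 1.62 with no matching, and the long arm ratio 2.13, 2.26, 2.12 and 2.26, and 2.08 without its last step.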
